A study of Mus musculus with 6 samples.

Results

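The genes compared here encode subunits of voltage-gated calcium channels, 10 of the 47069 genes in the count table, chosen by name and matched through their gene identifiers. They are the pore genes *Cacna1c* and *Cacna1d* (L-type), *Cacna1a* (P/Q-type), *Cacna1b* (N-type), *Cacna1e* (R-type), *Cacna1g* and *Cacna1h* (T-type), the auxiliary beta subunit gene *Cacnb3*, and the alpha2delta subunit genes *Cacna2d1* and *Cacna2d2*. They were measured by bulk mRNA sequencing in LβT2, an immortalized mouse gonadotrope line from the anterior pituitary, at 14 passages. All cells had received gonadotropin-releasing hormone (GnRH) at 2 nM over 40 min, so untreated cells are not analysed here, and were trypsinized and pelleted before preservation. In the fresh group (n = 3 libraries) the pellet was lysed at once in a guanidinium thiocyanate buffer. In the RNA-Best group (n = 3 libraries) the cells were kept in the preservation reagent RNA-Best, whose composition is proprietary, at 4°C over a minimum of 4 days and then pelleted and lysed in the same kind of buffer. The comparison asks whether cells stored in this reagent give the RNA levels of fresh cells. Separate cultures behind the libraries of either group are not stated in the sources used here, so p-values measure the spread between libraries, which may be technical.

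A voltage-gated calcium channel opens when the membrane depolarizes and lets calcium into the cell. The pore subunit sets the voltage range, the kinetics and the drug sensitivity of the current, while beta and alpha2delta subunits bring the pore to the cell surface and tune its gating. L-, P/Q-, N- and R-type pores open at strong depolarization, and T-type pores open near the resting potential and need neither auxiliary subunit for function. In gonadotropes, GnRH acts through a Gq-coupled receptor that releases calcium from stores through inositol trisphosphate receptors and also increases calcium entry, in large part through L-type channels, and calcium triggers gonadotropin secretion.

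In the RNA-Best libraries, the 6 detected pore genes of the set all had higher levels than in the fresh libraries, from 1.18-fold in *Cacna1h* to 1.59-fold in *Cacna1c*. *Cacnb3* had a slightly lower level (0.918-fold) that did not hold with an offset for GC content, where its log2 fold change was 0.03, the alpha2delta genes did not pass the test, and *Cacna1e* was at or below the detection floor in every library. Long genes in general had higher values in RNA-Best. With an offset for gene length the L-, P/Q- and N-type pore genes of the set passed with a smaller difference, and the T-type genes did not pass. *Cacna1d* did not pass when a term for the replicate number was added to that offset. The difference between channel types was not tested. The order of the genes by level was nearly the same in both groups, with *Cacna1h* first, followed by *Cacnb3*.

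Promoter sequences, from RefSeq on build GRCm38.p6, are shown for a pore gene called higher, for the pore gene without a level, and for *Cacnb3*, the gene called lower. The table held 11 promoters for 7 of the 10 genes, each with 250 bases before and 50 after a transcription start, and no entry for *Cacna1a*, *Cacna1g* or *Cacna1h*. Both strands were searched for GGGCGG, the box bound by Sp1, a general activator of CpG-rich promoters. The search also covered GCGTGGGCG, the site of the Egr proteins, and CAAGGTCA, the site of SF-1, which is the product of the gonadotrope gene *Nr5a1*. Further motifs were the AP-1 site TGANTCA, where N is any base, and finally the TATA box in its common form TATAAA that places the start of many tightly regulated genes. Capitals mark matches of all motifs but the TATA box, which in the printed sequences were all Sp1 boxes. The sequences lie at chr2:24763103-24763402 (minus strand) for *Cacna1b*, at chr1:154725871-154726170 (minus strand) for *Cacna1e*, and at chr15:98634517-98634816 (plus strand) for *Cacnb3*. The start of *Cacna1b* is the annotated 5′ end of the gene, and those printed for *Cacna1e* and *Cacnb3* lie inside the annotated gene.
Cacna1b: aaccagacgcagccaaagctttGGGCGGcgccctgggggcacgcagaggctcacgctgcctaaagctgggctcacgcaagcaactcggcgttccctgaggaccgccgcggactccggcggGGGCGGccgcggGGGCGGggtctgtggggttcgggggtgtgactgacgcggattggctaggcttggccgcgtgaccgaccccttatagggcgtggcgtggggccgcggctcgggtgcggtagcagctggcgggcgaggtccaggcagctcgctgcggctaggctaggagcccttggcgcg
Cacna1e: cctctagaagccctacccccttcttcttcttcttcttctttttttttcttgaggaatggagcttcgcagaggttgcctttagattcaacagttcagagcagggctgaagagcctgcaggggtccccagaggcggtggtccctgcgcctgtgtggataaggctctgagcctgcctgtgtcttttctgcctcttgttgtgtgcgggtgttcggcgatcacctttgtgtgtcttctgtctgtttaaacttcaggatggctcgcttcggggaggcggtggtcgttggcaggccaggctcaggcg
Cacnb3: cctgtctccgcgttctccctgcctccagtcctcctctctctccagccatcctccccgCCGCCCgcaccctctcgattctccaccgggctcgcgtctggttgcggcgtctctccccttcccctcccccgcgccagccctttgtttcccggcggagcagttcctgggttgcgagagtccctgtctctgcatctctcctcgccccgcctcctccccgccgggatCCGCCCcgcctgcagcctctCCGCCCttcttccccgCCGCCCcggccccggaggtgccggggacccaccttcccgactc

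The *Cacna1b* promoter had a GC content of 72.3% with 35 CpG dinucleotides and 3 Sp1 boxes. The printed *Cacnb3* promoter had 72% GC, 29 CpG dinucleotides and 4 Sp1 boxes, while the other in the table had 59.7% GC, 7 CpG dinucleotides and 1 Sp1 box. That of *Cacna1e* had 55.3% GC, 11 CpG dinucleotides and none of the motifs. Over all 32851 promoters of the table the median was 52.7% GC and 7 CpG dinucleotides. An Sp1 box was present in 7 of the 11 promoters, from 6 genes, against 35.7% of all promoters of the table. A TATA box was present in 1 of the 11, the distal promoter of *Cacna1d*, against 13.6% of all. No Egr, AP-1 or SF-1 letters were found in the 11, against 0.612%, 7.81% and 1.56% of all, and matches of different motifs did not overlap in them. *Cacna1c* and *Cacna1d* had the widest range among their own starts, from 3 to 57 CpG dinucleotides in the 3 promoters of *Cacna1c* and 4 against 63 in those of *Cacna1d*. The table does not say which start the LβT2 cells use.

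The libraries differed in depth, with 14477304 to 47438746 counts in the fresh and 4909418 to 11999363 in the RNA-Best group, so that every fresh library was deeper. A count of 0 allows up to 3 counts, as a bound on counting error alone. In CPM, counts scaled to a library total of 1000000, this is 0.0632 in the deepest library and 0.611 in the shallowest. Of the 8 gonadotrope markers, 7 were tested, and *Fshb*, the gene of the follicle-stimulating hormone beta subunit, had 0 counts in all libraries. Their summed level was 3215 to 3255 CPM in fresh and 2710 to 2785 CPM in RNA-Best libraries, mostly *Cga*, the common alpha subunit. The members went opposite ways, with the GnRH receptor gene *Gnrhr* and *Foxl2* called higher (log2 fold changes 0.43 and 0.33, edgeR adjusted p = 5.66e-11 and 3.55e-05) and *Cga*, *Nr5a1* and *Pitx1* lower (-0.36, -0.21 and -0.22, edgeR adjusted p of at most 5.35e-08), of which *Pitx1* did not pass with the GC offset (edgeR adjusted p = 0.0792). Among markers of other pituitary cells, *Prl* and *Pou1f1* had no count, and the sum was 1.09 to 1.29 CPM in fresh and 1.42 to 2.39 CPM in RNA-Best libraries, mostly *Tshb*, which was called higher (log2 fold change 0.91, edgeR adjusted p = 0.0035, and 0.62 without RNA-Best replicate 1, edgeR adjusted p = 0.147). The fibroblast markers summed to at most 0.173 CPM, the stem and folliculostellate cell markers to at most 3.08 CPM without a count of *Sox2*. The blood cell list summed to 2.81 to 3.35 CPM in the fresh and 2.85 to 4.07 CPM in the RNA-Best group, nearly all *Cd68*, which did not pass, while the leukocyte gene *Ptprc* had no count. The neuron list summed to 105 to 108 CPM in the fresh group and 116 to 118 CPM in the RNA-Best group, mostly *Snap25*, and the muscle list to 40.7 to 47.1 and 49.1 to 59.5 CPM, mostly *Myh7*, which was called higher (log2 fold change 0.26, edgeR adjusted p = 0.00052) but not with the length offset (0.08, edgeR adjusted p = 0.293). The endothelial list summed to 191 to 193 and 196 to 209 CPM, mostly *Cdh5*, and its members went opposite ways, with *Cdh5* called higher (log2 fold change 0.12, edgeR adjusted p = 0.00228) and *Pecam1* lower (-0.15, edgeR adjusted p = 0.015). In the neuron list as well, *Snap25* was called higher (0.19, edgeR adjusted p = 0.000124) and *Slc17a7* lower (-0.19, edgeR adjusted p = 0.0291). None of these 4 calls held throughout, since *Snap25* did not pass with the length offset (edgeR adjusted p = 0.11), *Pecam1* and *Slc17a7* did not in DESeq2 (adjusted p = 0.0884 and 0.14), and *Cdh5* did not without a filter on low counts (edgeR adjusted p = 0.0957). Neuronal *Rbfox3* was at 0.798 CPM or less and muscle *Acta1* at 0.52 CPM or less. The gonadotrope, other pituitary, neuron, muscle and endothelial sums differed between the groups without overlap, and their part in the values below was not tested. In bulk RNA, fewer cells of a kind and less RNA per cell cannot be told apart.

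The quasi-likelihood test of edgeR was fitted to all 14736 genes with enough counts, and adjusted p are Benjamini-Hochberg values over those genes. Of the 10 genes, 9 were tested, 6 were higher and 1 lower in RNA-Best at a false discovery rate of 5%, and 2 did not pass. Of all genes tested, 26.0% were called higher and 24.8% lower. The groups did not overlap in CPM in the 6 genes called higher and in the 1 called lower, where 30.4% of all genes tested lay wholly above and 27.1% wholly below in RNA-Best. The median log2 fold change was 0.24 over the 9 genes and -0.01 over all genes. Length moved with this result, since among genes with an exonic length of 8 to 16 kb the median log2 fold change was 0.25 and 67.1% were called higher, and among those over 16 kb it was 0.44 and 86.9%. Of the 9 genes, 6 fell in the first of these classes, with 5 higher, and *Cacna1c* in the second. In a fit with an offset for exonic length, which brought these class medians to 0.02 in both, 18.7% of all genes were called higher and 20.5% lower. There, 4 of the 9 genes were higher, 1 was lower and 4 did not pass, with a median log2 fold change of 0.02. Long genes were still called more often in that fit. Of all genes of 8 to 16 kb, 29.9% were called higher and 22.9% lower, and of those over 16 kb 32.5% and 24.5%. Depth differed between the groups as well, and with all libraries thinned to the smallest total 6 of the 9 genes were called, all of them higher, where 21.7% of all genes tested in that fit were called higher and 19.8% lower.

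*Cacna1c*, on chromosome 6 from 118587240 to 119196418 of GRCm38, encodes the pore of CaV1.2, the main L-type channel of heart and smooth muscle and also present in neurons and endocrine cells. It had 21.9, 22.5 and 21.4 CPM in the fresh and 36.5, 32.8 and 35.9 CPM in the RNA-Best libraries, a mean of 22.0 ± 0.561 against 35.1 ± 1.98 CPM (SD, n = 3 each). All RNA-Best libraries lay well above all fresh ones, and in the fit without an offset this was the largest fold change of the 9 tested genes. The log2 fold change was 0.67 (standard error 0.06, edgeR adjusted p = 1.43e-11), a 1.59-fold higher level with a 95% interval from 1.46 to 1.73. With 21.2 kb of exon, *Cacna1c* is the longest of the genes with a level, and with the length offset the log2 fold change was 0.24 (standard error 0.06, edgeR adjusted p = 0.00112).

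*Cacna1d*, on chromosome 14 from 30039939 to 30491455, encodes CaV1.3, an L-type channel that opens at less depolarized potentials and serves pacemaking in sinoatrial and endocrine cells. Its levels were 12.2, 12.4 and 12.4 CPM in fresh and 15.8, 16.9 and 19.9 CPM in RNA-Best libraries. The fresh libraries were nearly identical, while the RNA-Best libraries were spread over a wider range that stayed above them. Its log2 fold change was 0.53 (standard error 0.08, edgeR adjusted p = 2.16e-06), or 1.44-fold with an interval from 1.28 to 1.62. It was 0.24 with the length offset (standard error 0.08, edgeR adjusted p = 0.0222). With a replicate block added to that offset it was 0.19 and did not pass (edgeR adjusted p = 0.0685). An exon of *Chdh* on the opposite strand shares 589 bases, 4.67% of the exonic length, and *Chdh* itself had at most 0.228 CPM. The strand setting of the counting is not given in the sources used here, so reads of a gene and its opposite-strand partner cannot be told apart.

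*Cacna1a*, on chromosome 8 from 84388440 to 84640246, encodes CaV2.1, the P/Q-type channel of presynaptic endings. It had 43.1, 46.6 and 41.2 CPM in fresh libraries and 60.3, 61.1 and 56.0 CPM in RNA-Best libraries. The groups were separated by more than the range within either. The log2 fold change was 0.39 (standard error 0.05, edgeR adjusted p = 6.63e-08), or 1.31-fold with an interval from 1.22 to 1.41, and 0.13 with the length offset (standard error 0.05, edgeR adjusted p = 0.034). The antisense gene *Gm16183* shares 435 bases with it, 3.81% of its exons, and had at most 0.611 CPM.

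*Cacna1b*, on chromosome 2 from 24603887 to 24763152, encodes CaV2.2, the N-type channel, which also triggers transmitter release and is inhibited by G protein beta-gamma subunits. Its levels were 18.7, 19.8 and 21.9 CPM in fresh and 32.9, 28.1 and 28.8 CPM in RNA-Best libraries. RNA-Best replicate 1 was the highest, and the lowest RNA-Best library was still above every fresh library. *Cacna1b* had a log2 fold change of 0.60 (standard error 0.07, edgeR adjusted p = 5.99e-09), or 1.51-fold with an interval from 1.37 to 1.67. With the length offset it was 0.38 (standard error 0.07, edgeR adjusted p = 4.08e-05), the largest increase among the 9 genes in that fit.

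*Cacna1e*, on chromosome 1 from 154390731 to 154884501, encodes CaV2.3, the R-type pore found in neurons and in several endocrine cells. It had 2.2, 0 and 0.5 counts in the fresh and 0 counts in each of the RNA-Best libraries. All 6 values were at or below the floor of 3 counts, so no fold change was formed and no R-type message was detectable at this depth. Fractional values arise where a counting step divides a read between features. Its exons, 25.2 kb, are the longest of the 10 genes.

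*Cacna1h*, on chromosome 17 from 25374285 to 25433783, encodes CaV3.2, a T-type pore of neurons and of adrenal and other endocrine cells. It had 325, 349 and 339.9 CPM in fresh and 411, 423 and 376 CPM in RNA-Best libraries, resting on at least 2078 counts in each. The lowest RNA-Best library lay above the highest fresh library by less than the range within RNA-Best. Its log2 fold change was 0.23 (standard error 0.03, edgeR adjusted p = 4.52e-07), or 1.18-fold with an interval from 1.12 to 1.23. It was 0.02 with the length offset (standard error 0.03, edgeR adjusted p = 0.761). *Tpsg1* on the opposite strand shares 158 bases, or 1.62% of its exons, and had at most 0.253 CPM.

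*Cacna1g*, on chromosome 11 from 94408391 to 94474198, encodes CaV3.1, the T-type pore known from thalamic burst firing. It had 64.5, 65.6 and 66.0 CPM in fresh and 76.9, 80.7 and 77.6 CPM in RNA-Best libraries. Both groups were tight and clearly apart. The log2 fold change was 0.24 (standard error 0.04, edgeR adjusted p = 5.95e-06), or 1.18-fold with an interval from 1.12 to 1.25, and with the length offset it was 0.02 (standard error 0.04, edgeR adjusted p = 0.776). Both T-type genes thus had a 1.18-fold higher level, and neither passed in the fit with the length offset.

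*Cacnb3*, on chromosome 15 from 98630840 to 98644529, encodes a beta subunit that is prominent in neurons and endocrine cells and binds the pores of L-, P/Q-, N- and R-type channels. It had 99.1, 100.8 and 99.8 CPM in fresh and 95.2, 93.8 and 90.2 CPM in RNA-Best libraries. The RNA-Best libraries were all slightly below the fresh ones. The log2 fold change was -0.12 (standard error 0.04, edgeR adjusted p = 0.0068), or 0.918-fold with an interval from 0.870 to 0.969, and -0.10 with the length offset (standard error 0.04, edgeR adjusted p = 0.0288). GC content moved with this result. At 61.3% GC, *Cacnb3* belongs to the class over 60%, whose median log2 fold change over all genes was -0.16, and with an offset for GC content its own was 0.03 (standard error 0.04, edgeR adjusted p = 0.504). Without RNA-Best replicate 3, the library with the lowest level, its adjusted p from edgeR was 0.116.

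*Cacna2d1* and *Cacna2d2* encode extracellular alpha2delta subunits that raise the number of channels at the surface and are the binding sites of gabapentin. *Cacna2d1*, on chromosome 5 from 15934691 to 16374511, had 2.42, 2.38 and 2.28 CPM in fresh and 1.71, 3.46 and 2.08 CPM in RNA-Best libraries. These RNA-Best values rest on 15, 17 and 25 counts and bracket the fresh ones. Its log2 fold change was -0.11 (standard error 0.20, edgeR adjusted p = 0.673), and the interval of the fold, from 0.696 to 1.23, leaves room for a change in either direction. *Cacna2d2*, on chromosome 9 from 107399612 to 107529343, had 11.3, 11.2 and 10.8 CPM in fresh and 12.0, 9.98 and 12.2 CPM in RNA-Best libraries. The groups overlapped, and the log2 fold change was 0.05 (standard error 0.09, edgeR adjusted p = 0.706) with an interval of the fold from 0.908 to 1.17. With the length offset neither passed (*Cacna2d1* -0.40 on the log2 scale, edgeR adjusted p = 0.113, and *Cacna2d2* -0.10, edgeR adjusted p = 0.395).

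**Figure D1:**
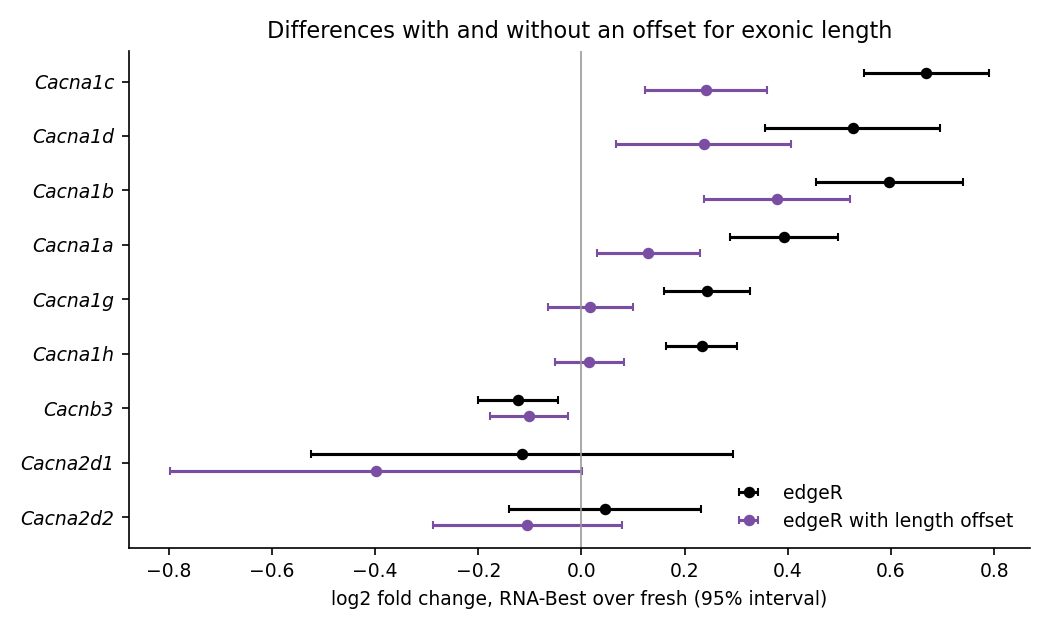
Log2 fold change of RNA-Best over fresh for the 9 tested genes (horizontal axis), in edgeR's fit (black) and in the fit with an offset for exonic length (purple); points are estimates and bars 95% intervals. The 6 pore genes lie right of 0 in the first fit, and in the second the T-type genes *Cacna1g* and *Cacna1h* lie at 0.02, while *Cacna1a*, *Cacna1b*, *Cacna1c* and *Cacna1d* stay between 0.13 and 0.38.

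Pore genes of similar exonic length differed in their fold change. *Cacna1b*, *Cacna1h* and *Cacna1g* have 9.94, 9.76 and 10.1 kb of exon, and their log2 fold changes were 0.60, 0.23 and 0.24. The ratio of *Cacna1b* to *Cacna1h* counts was 5.74%, 5.68% and 6.44% in fresh and 8.01%, 6.64% and 7.67% in RNA-Best libraries, so the 6 ratios separated by group. The ratio of *Cacna1g* to *Cacna1h* was 19.9%, 18.8% and 19.4% in fresh and 18.7%, 19.1% and 20.6% in RNA-Best, with full overlap. These pairs were picked after their values were seen, so no test is given. On the genome, *Cacna1c*, *Cacna1d*, *Cacna1a* and *Cacna1b* span 609, 452, 252 and 159 kb, while *Cacna1g* and *Cacna1h* span 65.8 and 59.5 kb. *Cacna2d1*, with a span of 439.8 kb, and *Cacna2d2*, with 129.7 kb, did not pass. The part of gene span or of intronic reads was not tested. GC content ranged from 49.6% in *Cacna1d* to 59.95% in *Cacna1h* among the 6 pore genes. With the GC offset all 6 passed as higher, with log2 fold changes from 0.37 in *Cacna1g* to 0.68 in *Cacna1c* and edgeR adjusted p of at most 1.83e-06. In that fit, which has no offset for length, 3663 of all 14736 genes tested were called higher and 3328 lower.

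**Figure D2:**
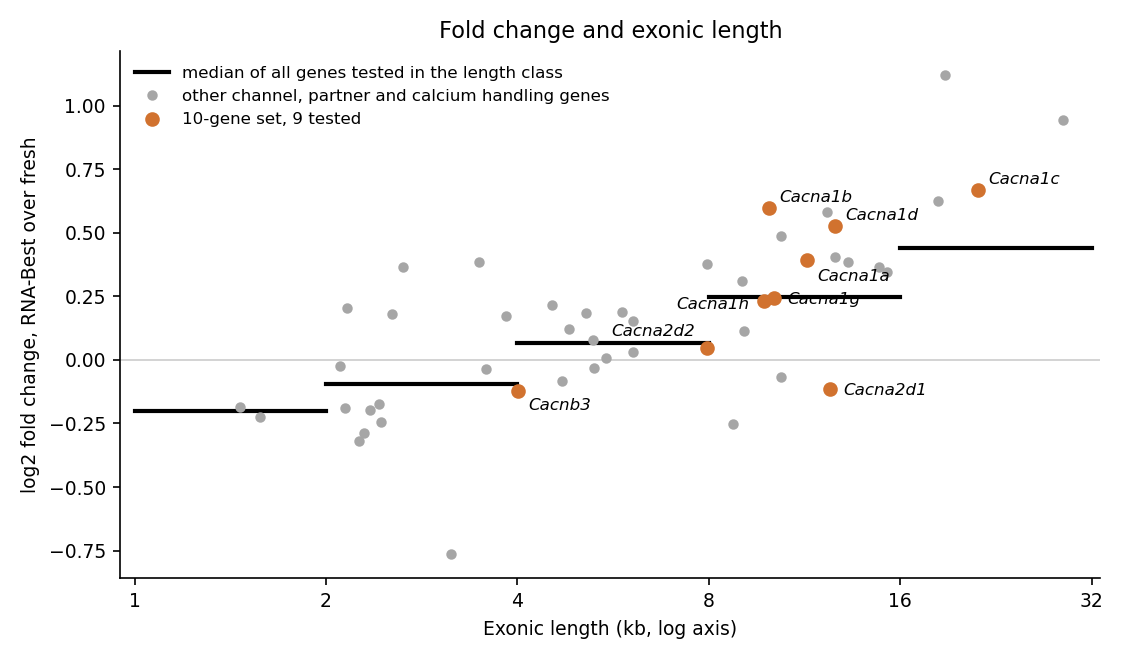
Log2 fold change of RNA-Best over fresh (vertical axis) against exonic length in kb (horizontal log axis); orange points are the 9 tested genes, gray points other channel, partner and calcium handling genes, and black lines the median of all tested genes in a length class. The median was -0.20 in the class with the shortest genes and 0.44 in the class over 16 kb, and *Cacna1b*, *Cacna1d*, *Cacna1a* and *Cacna1c* lie above the line of their class.

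Levels were compared between genes per kb of exon. In fresh libraries *Cacna1h* had 34.6 ± 1.23 CPM per kb and *Cacnb3* 24.9 ± 0.214 (SD, n = 3 each), followed by *Cacna1g* at 6.45 ± 0.076 and *Cacna1a* at 3.82 ± 0.238. *Cacna1b* had 2.02 ± 0.165, *Cacna2d2* 1.40 ± 0.037, *Cacna1c* 1.04 ± 0.0265 and *Cacna1d* 0.978 ± 0.0109 CPM per kb. *Cacna2d1*, at 0.190 ± 0.00578 CPM per kb, was the lowest gene with a level. No neighbors in this order overlapped, although *Cacna1c* exceeded *Cacna1d* by a ratio of 1.06. In RNA-Best libraries the first 5 genes kept their places, with *Cacna1h* at 41.3 ± 2.51, *Cacnb3* at 23.2 ± 0.645, *Cacna1g* at 7.73 ± 0.196, *Cacna1a* at 5.18 ± 0.240 and *Cacna1b* at 3.01 ± 0.262 CPM per kb. *Cacna1c* was next at 1.65 ± 0.0936, above *Cacna2d2* at 1.43 ± 0.152, the reverse of their order in fresh libraries, and *Cacna2d2* and *Cacna1d*, at 1.39 ± 0.167, overlapped. *Cacna2d1* remained last of those with a level at 0.195 ± 0.0744 CPM per kb.

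**Figure D3:**
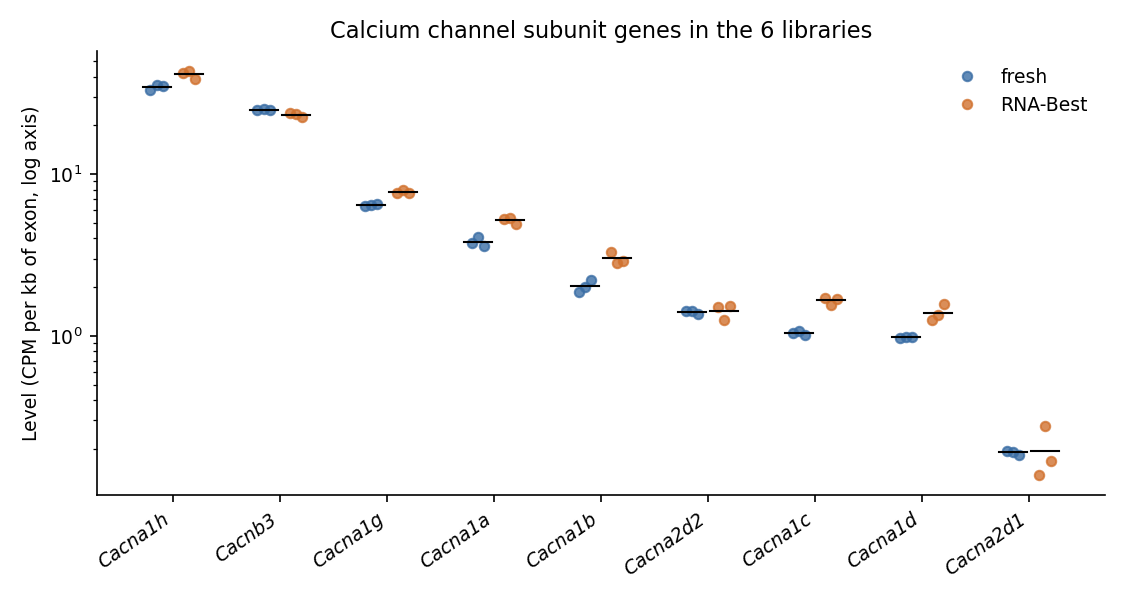
Level of the 9 genes with a level in each library, in CPM per kb of exon on a log axis (vertical), with genes ordered by their fresh mean; points are libraries (blue fresh, orange RNA-Best) and bars group means, n = 3 per group. *Cacna1h* and *Cacnb3* lie at 22.5 or more in every library, and *Cacna2d1* at 0.279 or less.

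The share of each pore gene in the summed level per kb of the 10 pore genes of the family does not depend on library size. *Cacna1h* made up 70.0%, 70.5% and 70.4% of it in fresh and 68.4%, 69.1% and 66.8% in RNA-Best libraries, a mean of 70.3 ± 0.281% against 68.1 ± 1.19% (SD, n = 3 each). The RNA-Best libraries were all lower, by 2.16 percentage points on average. The share of *Cacna1a* was 7.76 ± 0.404% against 8.54 ± 0.0365%, that of *Cacna1b* 4.11 ± 0.296% against 4.97 ± 0.440%, that of *Cacna1c* 2.11 ± 0.0669% against 2.73 ± 0.242%, and that of *Cacna1d* 1.99 ± 0.0441% against 2.30 ± 0.378%. These 4 were higher in every RNA-Best library than in any fresh one, by a narrow gap in *Cacna1d*, with 2.03% in the highest fresh and 2.04% in the lowest RNA-Best library. The difference of *Cacna1d*, 0.317 percentage points, was 0.100 without RNA-Best replicate 3 and 0.0512 with thinned libraries. In exact permutation tests, two-sided, over the 3 libraries against 3, each of these 5 differences had p = 0.1, the smallest that the design allows, so none can pass a threshold of 5% before or after adjustment over the 7 shares tested. *Cacna1g* held 13.1 ± 0.309% against 12.8 ± 0.477% (exact permutation test, p = 0.4) and *Cacna1f*, the retinal L-type gene, 0.656 ± 0.0692% against 0.568 ± 0.119% (exact permutation test, p = 0.3), with overlap in both. *Cacna1e* and *Cacna1i* held at most 0.0147% in each library, and *Cacna1s*, the L-type gene of skeletal muscle, had no count.

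**Figure D4:**
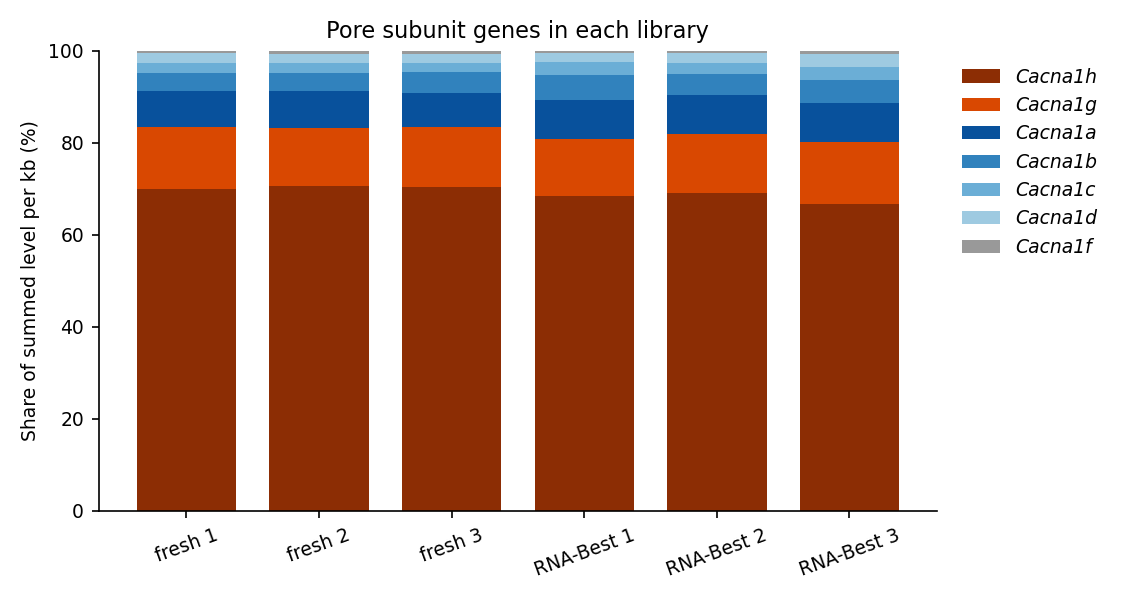
Share of each pore gene in the summed level per kb of the pore genes (vertical axis, percent) in each of the 6 libraries; stacked segments from the bottom are the T-type genes (brown and orange), *Cacna1a* to *Cacna1d* (blues) and *Cacna1f* (gray). The *Cacna1h* segment ends between 70.0% and 70.5% in fresh libraries and between 66.8% and 69.1% in RNA-Best libraries.

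Between subunit classes, the ratio of the T-type genes to the sum of *Cacna1a* to *Cacna1d* per kb was 5.18, 5.20 and 5.29 in fresh and 4.30, 4.64 and 4.17 in RNA-Best libraries. The summed beta genes over the summed pore genes gave 0.615, 0.585 and 0.601 against 0.476, 0.478 and 0.487, and the alpha2delta genes over the pore genes 0.0416, 0.0376 and 0.0358 against 0.0314, 0.0267 and 0.0351. In all 3 ratios the RNA-Best libraries were below the fresh ones, and the last came closest to overlap. These ratios were formed after the values were seen and are given without a test. With the length of the longest transcript in place of all exons, the means were 4.65 against 3.89, 0.781 against 0.640 and 0.0491 against 0.0390. Among the beta genes, *Cacnb3* held 84.3 ± 0.551% of the summed level in the fresh and 79.7 ± 1.49% in the RNA-Best group, and *Cacnb2* 10.5 ± 0.471% and 14.2 ± 1.17% (SD, n = 3 each), both without overlap. The size of these beta shares depends on the length used. *Cacnb2* has 13228 bases of exon and a longest transcript of 5030 bases, and *Cacnb3* has 4010 and 2734 bases. Among the alpha2delta genes, *Cacna2d2* held 74.2 ± 2.36% and 76.2 ± 1.59%, *Cacna2d3* 15.5 ± 2.44% and 12.6 ± 3.67%, and *Cacna2d1* 10.1 ± 0.275% and 10.7 ± 5.19%, all with overlap.

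The list of the remaining family held 16 genes, of which 9 were tested, 1 was higher, 1 was lower and 7 did not pass, with a median log2 fold change of 0.01. Over all genes tested these calls took 26.0% and 24.8%. The L-type pore gene *Cacna1f* was among those that did not pass (log2 fold change 0.12, standard error 0.18, edgeR adjusted p = 0.618). *Cacnb2*, a beta subunit best known from the heart, had 39.9, 39.5 and 43.2 CPM in fresh and 52.4, 61.5 and 50.003 CPM in RNA-Best libraries. Every RNA-Best value exceeded every fresh one, with a log2 fold change of 0.39 (standard error 0.06, edgeR adjusted p = 3.71e-07) that was 0.08 with the length offset (edgeR adjusted p = 0.253). *Cacng7*, whose product is best known as a transmembrane regulator of AMPA receptors, had 157, 159 and 155 CPM in fresh and 134, 132 and 135 CPM in RNA-Best libraries. It was lower without overlap, by a log2 fold change of -0.25 (standard error 0.03, edgeR adjusted p = 1.21e-07), and of -0.15 with the length offset (edgeR adjusted p = 0.000501). With that offset *Cacng7* was the 1 gene of the 16 that passed.

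Channel partners and other calcium handling genes numbered 35, and of the 31 tested, 13 were higher, 6 lower and 12 did not pass, with a median log2 fold change of 0.18, where 26.0% of all genes tested were called higher and 24.8% lower. With the length offset 11 were higher, 3 lower and 17 did not pass, where 18.7% and 20.5% of all genes were called. Of 13 tested partners, which bind the pore or beta subunits, 2 were higher and 4 lower. *Rims2*, a scaffold that ties calcium channels to vesicle release sites, had a log2 fold change of 0.49 (edgeR adjusted p = 2.07e-10), and its binding partner *Rimbp2* of 0.38 (edgeR adjusted p = 4.16e-05). *Rem2*, a small GTPase that binds beta subunits and inhibits the current, had -0.32 (edgeR adjusted p = 0.00706) with overlapping groups, and the calmodulin gene *Calm2* -0.18 (edgeR adjusted p = 8.4e-07). With the length offset *Rims2* and *Rimbp2* passed at 0.26 and 0.23, and *Rem2* and *Calm2* did not, at -0.22 and -0.04 (edgeR adjusted p = 0.0829 and 0.282). *Rem2* did not pass without RNA-Best replicate 1 or 3 either (edgeR adjusted p = 0.0617 and 0.191).

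Of 9 tested genes of store release and store-operated entry, 5 were higher and 2 lower, against 26.0% and 24.8% over all genes. Among the receptors of inositol trisphosphate, which pass the GnRH signal on to the stores, the log2 fold change was 0.63 in *Itpr1*, 0.36 in *Itpr2* and 0.31 in *Itpr3* (edgeR adjusted p = 1.38e-14, 1.7e-05 and 3.57e-09). *Ryr2*, a ryanodine receptor, had 0.94 (standard error 0.33, edgeR adjusted p = 0.0283) at a level of 0.345 to 0.506 CPM in fresh and 0.815 to 0.917 CPM in RNA-Best libraries. The latter rest on 8, 4 and 11 counts, near the floor of 3, and *Ryr2* did not pass in DESeq2 (adjusted p = 0.113) or without RNA-Best replicate 1 or 3 or fresh replicate 1 (edgeR adjusted p = 0.0813, 0.125 and 0.0512). With the length offset *Itpr1* and *Itpr3* passed at 0.23 and 0.12, and *Itpr2* and *Ryr2* did not, at 0.03 and 0.45 (edgeR adjusted p = 0.756 and 0.354). Of 9 tested pumps and exchangers, which clear calcium from the cytosol, 6 were higher and 0 lower, with 3 that did not pass, beside the 26.0% and 24.8% of all genes tested. In DESeq2 and limma-voom the number of lower pump and exchanger genes was also 0, where 2762 and 3574 of all 14736 genes tested were called lower. Long genes were seldom called lower in edgeR, with 3.56% of all genes of 8 to 16 kb, the class of *Atp2b1*, *Atp2b2* and *Atp2b4*. *Slc8a1*, the sodium-calcium exchanger NCX1, had 6.54, 6.43 and 4.97 CPM in fresh and 14.2, 13.4 and 13.5 CPM in RNA-Best libraries. Its RNA-Best values were all more than the highest fresh value, with a log2 fold change of 1.12 (standard error 0.10, edgeR adjusted p = 1.93e-11), and 0.73 with the length offset (edgeR adjusted p = 2.53e-07). The plasma membrane pumps *Atp2b4* and *Atp2b2* had 0.58 and 0.40, and the sarcoplasmic reticulum pump *Atp2a1* had 0.38 (edgeR adjusted p = 1.1e-17, 1.68e-12 and 0.0191), and all 3 passed with the length offset, at 0.29, 0.11 and 0.43. *Atp2a1* did not pass in DESeq2 (adjusted p = 0.0892) or without RNA-Best replicate 3 (edgeR adjusted p = 0.268). *Cacna1c*, *Slc8a1*, *Itpr1* and *Ryr2* are the tested genes over 16 kb of exon among those named, and 86.9% of all tested genes in that class were called higher.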

How the data were processed

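The sources name STAR 2.5.1b for alignment of single reads to GRCm38 (mm10) and featureCounts 1.5.0-p1 for counting per gene. The deposited values are estimated counts, not scaled for library size, and per library 9.36% to 16.3% of them were not whole within 0.001. They were rounded for the count models, and CPM were formed from the column totals of the values as deposited by the authors. Exonic lengths (union of exons), GC content (longest transcript) and positions were read from a GENCODE annotation newer than that of the authors, also on GRCm38; 46574 of the 47069 identifiers were found in it and 46488 had a GC content.

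Counts were tested in R 4.3.3 with the quasi-likelihood test of edgeR 4.0.16 (TMM factors 0.994 to 1.01, filterByExpr with a minimum count of 10), group as the only term, and Benjamini-Hochberg adjustment over all genes. Intervals are 95% intervals of the fit. Shares were compared by exact permutation tests. Alternatives were RLE factors, DESeq2 1.42.0, limma 3.58.1 voom (the method the study names), no filter, glmTreat against a 1.2-fold change, a replicate block, loess offsets (span 0.5) for length or GC content, thinning to 4909268 counts, and leaving out each library. The main edgeR fit was also run on simulated counts, and its outcome there is not reported here. Libraries of a group differed by more than sampling noise, with a chi-square per gene of 1.08 to 2.21.

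The 10 genes and all lists were chosen with earlier results of these data known. All 10 are named, and from each other list at most 4 genes, those past the threshold with the largest absolute log2 fold change. Genes of the share comparisons and the markers are named besides. A gene of the marker lists is not reported here. Counting intervals and floors cover counting error only.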

Additional observations from a re-analysis of the deposited data

How the results depend on the processing

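Of the 9 tested calcium channel genes, 7 passed in edgeR. The number was 7 with RLE factors, DESeq2, limma-voom, no filter and the replicate block, 6 with the GC offset and with thinning, 5 with the length offset, 4 with glmTreat against a 1.2-fold change, 3 with the replicate block and length offset together, and 6 to 7 when single libraries were left out. Deviations from the group mean were hardly correlated between same-numbered libraries (correlations -0.0084, 0.0122 and -0.00771). This cannot decide whether the numbers pair the libraries, since RNA-Best libraries differed only slightly beyond sampling noise (chi-square per gene 1.08 to 1.29). Of the further channel genes 2 passed, and 1 with glmTreat, with the length offset and with the replicate block and length offset. With no filter, the replicate block, the GC offset and without fresh replicate 1 the number was 3. Of the partner and calcium handling genes 19 passed, 5 with glmTreat and 14 to 20 with the other alternatives. Over all 14736 genes tested 7479 passed, and 1693 with glmTreat. The number was 7458 with RLE factors, 5955 with DESeq2, 7459 with limma-voom and 7472 with the replicate block. It was 6991 with the GC offset, 5768 with the length offset and 5810 with the replicate block and length offset. With no filter 7637 of 27250 genes passed, and with thinning 5388 of 12981. When single libraries were left out, 6357 to 7273 passed, of 14728 to 15015 tested.

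*Cacna1a*, *Cacna1b* and *Cacna1c* passed as higher under all 16 alternatives, with lowest log2 fold changes of 0.13, 0.36 and 0.23. *Cacna1d* did not pass with the replicate block and length offset (edgeR adjusted p = 0.0685), and passed with either of them alone. *Cacna1g* and *Cacna1h* did not pass with glmTreat or with either fit that has the length offset. *Cacnb3* did not pass with glmTreat or with thinning (log2 fold change -0.114, edgeR adjusted p = 0.104). Nor did it pass with the replicate block and length offset (-0.0942, edgeR adjusted p = 0.0519) or without RNA-Best replicate 3 (-0.0919, edgeR adjusted p = 0.116). With the GC offset its log2 fold change was 0.0324 in place of -0.12. *Cacna2d1*, never past the threshold, went from -0.32 to 0.0486 when single libraries were left out, the last without RNA-Best replicate 1. *Cacna2d2*, also never past it, was -0.00123 with no filter, -0.105 with the length offset, -0.114 with the replicate block and length offset, -0.127 with thinning, and -0.00555 to 0.10 when single libraries were left out, the first without RNA-Best replicate 3. Without RNA-Best replicate 1, *Cacna2d2* and *Cacna1d* exchanged places, so that 2 of the 10 genes moved in the order of levels, where the other leave-outs moved 0. The causes were not tested. At 15 to 25 counts of *Cacna2d1* in an RNA-Best library, and at most 2.2 counts of *Cacna1e* in any library, depth limits what can be seen of these genes.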
